A study of Xenopus laevis with 12 samples.

Results

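The genes described here are pax3.L, prdm1.S, kctd15.L and ets1.S, 4 regulators of the border between neural plate and epidermis and of the neural crest that forms there. Their members are all probe sets that the array's annotation assigns to these 4 symbols and to no other symbol. That gave 9 of 15491 probe sets: 4 for pax3.L, 3 for prdm1.S and 1 each for kctd15.L and ets1.S. Of the 9, 8 lay above the lowest 25% of mean signal and were tested, and 1 dim pax3.L probe set was not. The frog Xenopus laevis is allotetraploid, and the suffixes .L and .S tell apart the gene copies of its longer and shorter chromosome sets.

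Total RNA was measured in explants of the embryonic ectoderm (animal caps) on 12 Affymetrix arrays that fall into 4 groups of 3. Geminin-injected caps came from pigmented embryos that received 300 pg of RNA of a Geminin form named without its coil, in the animal side of both cells at the 2-cell stage, and the other caps were uninjected. Each kind was collected when whole embryos of the same age had reached stage 10.5 (early gastrula) or stage 12 (late gastrula). Each sample pooled 80 caps, cut at stage 8 to 9 and cultured at 25 °C in the saline MMR at 0.7x strength. Geminin binds the replication licensing factor Cdt1 and has a role in how ectoderm becomes neural, and the series' title asks which genes it regulates in ectoderm. No caps injected with a control RNA were analysed here, so an effect of injection and one of Geminin cannot be told apart. Whole caps were used, so fewer cells of a type and less RNA per cell cannot be told apart either.

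In the embryo, intermediate BMP signalling together with Wnt and FGF signals sets up the neural border, a strip of ectoderm between the neural plate and the epidermis. Border specifier genes, among them pax3, zic1, msx1, tfap2a and the dlx genes, are switched on there during gastrulation. They act ahead of crest specifier genes, the transcription factors that give neural crest cells their identity. Pax3 is a paired-box transcription factor that induces crest together with Zic1 in frog embryos. Prdm1 (Blimp1) is a zinc finger factor that, in zebrafish, is needed at the border for crest cells and for early sensory neurons. Kctd15 is a BTB-domain protein that, in zebrafish and frog embryos, limits the spread of the crest, and in zebrafish it inhibits the border factor AP-2. Ets1 is an ETS-family transcription factor of crest cells, and also of blood vessel cells.

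The libraries were checked first. Signal of the injected gene, gmnn.L, was higher in the injected than in the uninjected array of all 6 pairs. Yet the library labelled uninjected, stage 12, experiment 3 read 4576, against 116 and 278 in the other uninjected arrays of that stage. A separate array titled uninjected, stage 12 (experiment 2) has a description that names stage 10.5, and here its title and stage label were used. These 2 arrays correlated at 0.99 with each other, and the injected arrays of the same experiments at 0.982. The design text says that whole experiments were repeated 3 times. No label says whether experiments 2 and 3 of stage 12 used separate embryo batches, so p-values may measure only the spread between these samples. Results of stage 12 are therefore also given without the pair of experiment 3. Array medians of the deposited intensity ran from 49.0 to 145.7. Signal of the listed epidermal genes was present in every group, and the mesoderm, endoderm and blood lists are given with the other lists.

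At stage 10.5, early gastrula, injected caps had less signal for pax3.L, prdm1.S and kctd15.L. Of the 8 tested probe sets, 6 from these 3 genes fell and 0 rose, in a comparison where 7.06% of all tested probe sets fell and 3.31% rose (10.4% in either direction). At stage 12 pax3.L, kctd15.L and ets1.S were lower, with 4 probe sets that fell and 0 that rose, where 17.6% fell and 23.5% rose (41.2% in all). These calls have an adjusted p under 0.05 in limma's fit with each experiment as a block. Without the block 3 of the 6 falls at stage 10.5 still passed. The 4 genes were chosen with earlier results of these data known, so these counts describe them and are no independent support. Probe sets of 1 gene are counted separately and are not independent of each other. The dimmest prdm1.S probe set also passed the filter only through its high signal in uninjected caps of stage 10.5. The change of prdm1.S was smaller at stage 12 than at stage 10.5, and ets1.S was lower only at stage 12, with the difference between stages passing for both. Of the 8 probe sets, 2 (both of prdm1.S) passed with a higher and 1 (ets1.S) with a lower change at stage 12, against 1.8% and 3.97% of all probe sets (5.77% in all). Without the arrays of experiment 2, none of these 3 differences between stages passed, and the values are given with each gene. That fit has fewer pairs per stage, and fewer of all tested probe sets passed there as well.

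**Figure D1:**
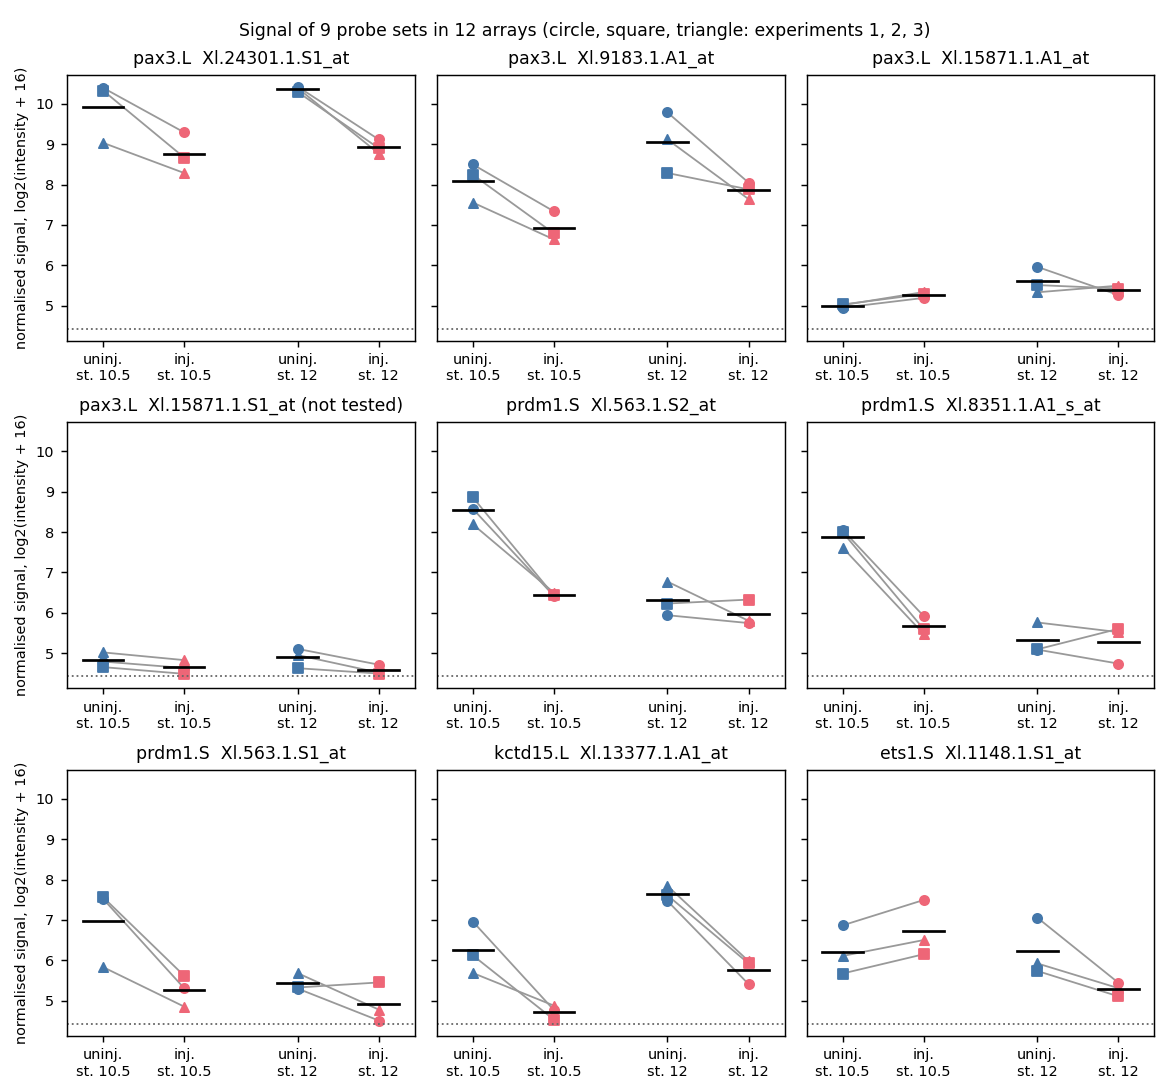
Normalised signal (log2 of intensity + 16) of the 9 probe sets of pax3.L, prdm1.S, kctd15.L and ets1.S in the 12 arrays. Circles, squares and triangles are experiments 1, 2 and 3, lines join the uninjected and the injected array of a pair, bars are means of 3 arrays, and the dotted line is the 5th percentile of all values, 4.43. Both brighter pax3.L probe sets and kctd15.L lie lower in the injected array of all 6 pairs, prdm1.S differs at stage 10.5, and ets1.S is lower at stage 12.

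The brightest pax3.L probe set, Xl.24301.1.S1_at, carried a strong signal, at the percentile of 91.1 among all probe sets. In uninjected caps at stage 10.5 its deposited intensity was 1041, 1985 and 449.8 in experiments 1, 2 and 3, and in injected caps 493, 680.4 and 260.1. Late gastrula caps read 1225, 1393 and 1555 in uninjected caps, against 391, 451 and 436 in injected caps. The injected array was the lower one in all 6 pairs. At stage 10.5 the groups overlapped, because uninjected caps of experiment 3 were below the injected caps of experiments 1 and 2. At stage 12 they did not. On the normalised log2 scale the uninjected mean was 9.92 ± 0.77 (SD, n = 3) and the injected mean 8.75 ± 0.51 at stage 10.5, and the means were 10.37 ± 0.07 and 8.93 ± 0.18 at stage 12.

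This pax3.L probe set fell by 1.17 ± 0.16 (limma SE) on the log2 scale at stage 10.5, 2.25-fold, with an adjusted p of 0.000737. Its level at stage 12 fell by 1.44 ± 0.16, 2.72-fold (adjusted p = 9.04e-05). The 3 pairs gave -1.10, -1.66 and -0.75 at stage 10.5 and -1.31, -1.40 and -1.62 at stage 12. The stage 12 change was thus the more even among pairs. The difference between the stages was -0.27, with a 95% interval of -0.77 to 0.23 (limma adjusted p = 0.491). Without the stage 12 pair of experiment 3 the stage 12 change was -1.35 (adjusted p = 0.000740). Without the experiment as a block, the stage 10.5 change no longer passed (limma adjusted p = 0.120).

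The second pax3.L probe set, Xl.9183.1.A1_at, gave nearly the same sizes. It read 290.2, 514 and 158 in uninjected caps at stage 10.5, against 130, 176 and 71.9 in injected caps. The stage 12 values were 710.1, 299 and 575 against 169.8, 211 and 187. After normalisation the groups did not overlap at either stage, although the deposited intensities overlapped at stage 10.5. It fell by 1.18 ± 0.23 early, with an adjusted p of 0.00575 in limma. Its late change was -1.21 ± 0.23 (limma adjusted p = 0.00179). The pairs of stage 12 were uneven here, at -1.74, -0.41 and -1.48, and experiment 2 had the lowest uninjected signal. Without the pair of experiment 3 the stage 12 change was -1.07 (limma adjusted p = 0.0125). Without the block the stage 10.5 change did not pass (limma adjusted p = 0.155).

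The pax3.L probe set Xl.15871.1.A1_at did not follow these 2. Its signal was dim, at the percentile of 26.4, just above the limit of the filter. It read 12.38, 24.9 and 11.6 in uninjected caps at stage 10.5 and 16.8, 35.3 and 16.9 in injected caps, so every injected array was above its partner. At stage 12 the values were 31.2, 34.2 and 29.5 against 13.2, 30.9 and 32.6, and the groups overlapped. Its change was 0.27 ± 0.18 at stage 10.5 (limma adjusted p = 0.429) and -0.21 ± 0.18 at stage 12 (adjusted p = 0.390). All 4 group means lay between 4.996 and 5.60, close to 4.43, the 5th percentile of all values, and deposited intensities at that percentile ran from 2.85 to 8.33 over the arrays. The remaining probe set, Xl.15871.1.S1_at, lies at the percentile of 10.2 and was not tested. Its deposited intensity was 5.67 to 18.9, and it was lower in the injected array of all 6 pairs, by 0.13 to 0.44 on the log2 scale. Deposited intensities of injected and uninjected caps did not overlap at either stage, although the normalised ones did. The names of these 2 dim probe sets share the number 15871.1, and whether both read the same RNA was not tested.

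Whether probe sets of 1 gene changed by different amounts was tested on the difference from the gene's brightest probe set in each array. For pax3.L, the second probe set differed from the brightest by -0.01 at stage 10.5, with a 95% interval of -0.51 to 0.50 (limma adjusted p = 0.999). At stage 12 it differed by 0.24, with an interval of -0.27 to 0.74 (adjusted p = 0.588). The dim Xl.15871.1.A1_at differed by 1.45 ± 0.27 at stage 10.5, with an adjusted p of 0.0140 in limma. Its difference at stage 12 was 1.24 ± 0.27 (limma adjusted p = 0.0121). Of 1343 such probe sets of 984 genes, 2.23% passed at stage 10.5 and 9.83% at stage 12. The typical size was smaller, with a median of 0.14 and a 90th percentile of 0.47 at stage 10.5, and 0.22 and 0.71 at stage 12. Without the block neither difference passed (limma adjusted p = 0.566 and 0.290). Without experiment 2 neither passed (limma adjusted p = 0.210 and 0.0795), the first then at 1.21, and without experiment 3 the stage 12 value was 0.96 (adjusted p = 0.0807). The falls of the brightest probe set, applied to uninjected caps in the dim one, would end at 3.82 at stage 10.5 and 4.16 at stage 12, under the 5th percentile of 4.43. A fall of that size could therefore not be shown in full in the dim probe set, although part of it could. Uninjected caps there had means of 4.996 at stage 10.5 and 5.60 at stage 12, and the changes were 0.27 and -0.21. Whether low signal, an unequal response or another reason accounts for the difference was not tested.

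**Figure D2:**
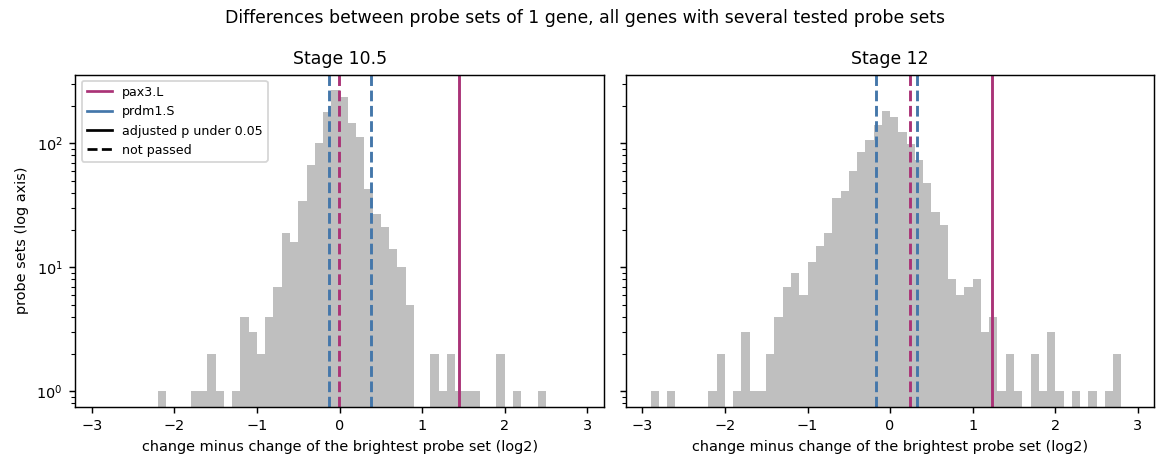
Histograms of the change of a probe set minus the change of the brightest probe set of its gene (x axis, log2), over 1343 probe sets of 984 genes at stage 10.5 and stage 12, with the number of probe sets on a log axis. Vertical lines mark the pax3.L and prdm1.S probe sets, solid where the adjusted p is under 0.05, and the dim pax3.L probe set stands at 1.45 and 1.24 while the others lie between -0.17 and 0.38.

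For prdm1.S, all 3 probe sets fell at stage 10.5 and none passed at stage 12, while the difference between stages passed for 2 of them. The brightest, Xl.563.1.S2_at, read 304, 789 and 250.0 in uninjected caps at stage 10.5 and 63.2, 129 and 63.3 in injected caps. At stage 12 it read 30.7, 60.1 and 97.6 in uninjected caps against 22.9, 64.4 and 42.9 in injected caps. Uninjected caps of stage 10.5 were above every other array, and the other 3 groups overlapped in these deposited intensities. The normalised means were 8.54 ± 0.33 in uninjected and 6.45 ± 0.04 in injected caps at stage 10.5, and 6.31 ± 0.42 and 5.96 ± 0.32 at stage 12 (SD, n = 3).

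This probe set of prdm1.S fell by 2.09 ± 0.22 at stage 10.5, 4.27-fold, with an adjusted p of 0.000153 in limma. Its fall was rank 36 among all falls at that stage. The pairs gave -2.16, -2.43 and -1.69. At stage 12 the change was -0.36, with a 95% interval of -0.83 to 0.12 (limma adjusted p = 0.208), and the pairs differed in sign at -0.19, 0.10 and -0.97. Without the stage 12 pair of experiment 3 it was -0.05 (limma adjusted p = 0.879). The difference between stages was 1.74 ± 0.31 (limma adjusted p = 0.00898). Without the block it had an adjusted p of 0.0748, and without experiment 2 it was 1.34 (adjusted p = 0.193).

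The prdm1.S probe set Xl.8351.1.A1_s_at, of a type whose probes can match several related transcripts, read 218, 434 and 165 in uninjected caps at stage 10.5. Injected caps read 39.9, 52.8 and 20.0. At stage 12 the values were 13.8, 23.0 and 43.1 against 6, 36.2 and 33.5. The groups were well apart at the early stage and overlapped at the late one. It fell by 2.23 ± 0.19 at stage 10.5, 4.68-fold (limma adjusted p = 5.61e-05), and its change at stage 12 was -0.03, with an interval of -0.44 to 0.39 (adjusted p = 0.926). The difference between stages was 2.20 ± 0.27 (limma adjusted p = 0.00166), and 1.85 without experiment 2 (adjusted p = 0.0580). Without the stage 12 pair of experiment 3, the stage 12 change was 0.08 (limma adjusted p = 0.807).

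The dimmest prdm1.S probe set, Xl.563.1.S1_at, read 149.8, 317 and 32.0 in uninjected caps at stage 10.5, against 19.7, 54.0 and 8.49 in injected caps. The late values were 17.4, 29.1 and 40.4 against 3.52, 31.6 and 14.5. Within each pair of stage 10.5 the injected array was far lower, although signal in experiment 3 was low on both arrays. It fell by 1.71 ± 0.25 at stage 10.5 (limma adjusted p = 0.00112, and 0.0585 without the block), and the value was -1.05 with a pseudocount of 64. This probe set passed the filter's limit of 5.256 only through uninjected caps of stage 10.5, with a mean of 6.97. Injected caps of stage 10.5 were at 5.260, and uninjected and injected caps of stage 12 at 5.44 and 4.91. Its early fall is therefore no independent support. At stage 12 the change was -0.52 ± 0.25 (limma adjusted p = 0.119). Here the difference between stages, 1.19 ± 0.36, did not pass (limma adjusted p = 0.0767), but without experiment 3 it was 1.75 (adjusted p = 0.0262).

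No disagreement among the 3 prdm1.S probe sets passed within a stage. Their differences between stages were 1.74, 2.20 and 1.19, and whether these differ from each other was not tested. Relative to the brightest, the change of Xl.8351.1.A1_s_at differed by -0.13 at stage 10.5 and 0.33 at stage 12 (limma adjusted p = 0.942 and 0.395). That of Xl.563.1.S1_at differed by 0.38 and -0.17 (limma adjusted p = 0.649 and 0.710), with intervals from -0.13 to 0.88 and from -0.67 to 0.34. The test of disagreement thus passed for 1 of the 4 probe sets compared with a brighter one, the dim pax3.L probe set. On the normalised scale that probe set could not have shown the fall of the brighter one in full. Low signal bounds the stage 12 values of prdm1.S: the stage 10.5 falls of its 3 probe sets, applied to uninjected caps of stage 12, would end at 4.22, 3.09 and 3.72, all under the 5th percentile of 4.43. On this scale, which adds 16 to each intensity, a fall of that size could not be shown in full at stage 12, although part of it could. Uninjected caps of stage 12 had means of 6.31, 5.31 and 5.44 there, and the changes were -0.36, -0.03 and -0.52. In deposited intensity, injected over uninjected in the brightest was 0.208, 0.164 and 0.253 early and 0.746, 1.07 and 0.439 late. Xl.8351.1.A1_s_at gave 0.183, 0.122 and 0.121, then 0.435, 1.58 and 0.776. Xl.563.1.S1_at gave 0.131, 0.170 and 0.265, then 0.202, 1.09 and 0.358. Whether low signal accounts for the smaller late change was not tested.

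**Figure D3:**
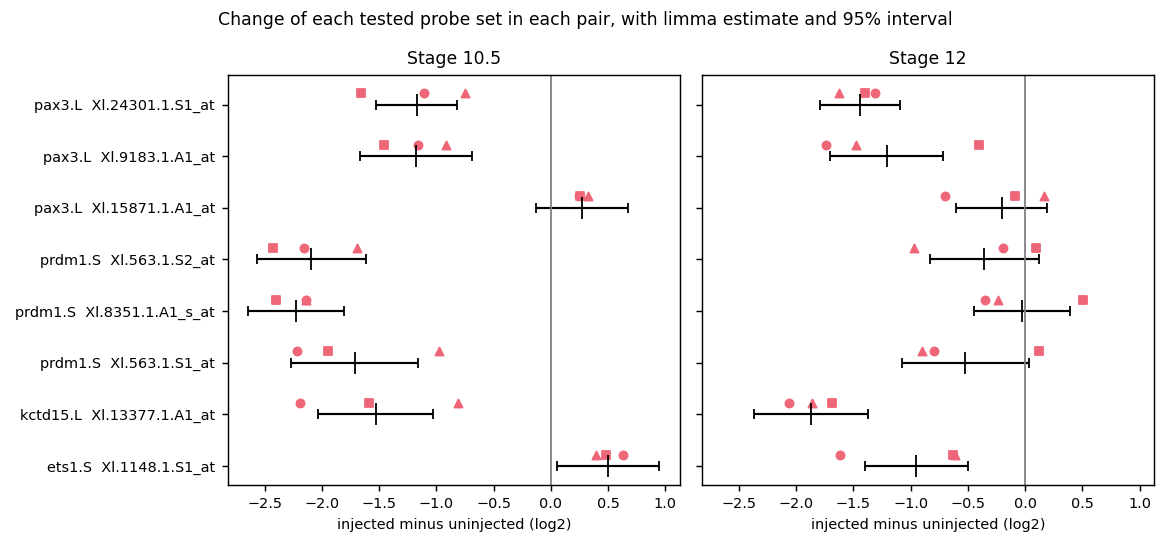
Injected minus uninjected change (x axis, log2) of the 8 tested probe sets at stage 10.5 and stage 12, with circles, squares and triangles for the pairs of experiments 1, 2 and 3 and black bars for the limma estimate with its 95% interval. The prdm1.S probe sets lie at -1.71 to -2.23 at stage 10.5 and nearer to 0 at stage 12, while ets1.S goes from 0.50 to -0.95.

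The single kctd15.L probe set, Xl.13377.1.A1_at, was lower in injected caps in every pair. At stage 10.5 it read 101, 96.5 and 26.7 in uninjected caps and 8.78, 9.04 and 8.81 in injected caps. The later values were 109.7, 178 and 228 in uninjected caps against 15.9, 47.0 and 49.4 in injected caps. The groups did not overlap at either stage. Normalised means were 6.26 ± 0.65 in uninjected and 4.73 ± 0.18 in injected caps at stage 10.5, and 7.64 ± 0.19 and 5.77 ± 0.31 at stage 12 (SD, n = 3).

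The level of kctd15.L fell by 1.53 ± 0.23 at stage 10.5, 2.89-fold, with an adjusted p of 0.00115 in limma. The late change was -1.87 ± 0.23, a 3.66-fold fall (limma adjusted p = 0.000143). The deposited intensity of injected over uninjected caps was 0.0867, 0.0937 and 0.330 in the 3 pairs of stage 10.5 and 0.145, 0.264 and 0.217 at stage 12. Because injected caps were so dim, the size of the early fall depends on the pseudocount of 16, and it was -2.44 with 1 and -0.77 with 64 (limma adjusted p = 0.000958 and 0.00369). Both calls remained without the block, with adjusted p of 0.0219 and 0.00245. The pairs gave -2.19, -1.59 and -0.81 at stage 10.5 and -2.06, -1.69 and -1.86 at stage 12. Without the stage 12 pair of experiment 3 the late change was -1.87 (limma adjusted p = 0.000805). The difference between stages was -0.34, with an interval of -1.05 to 0.37 (limma adjusted p = 0.547). Injected caps of stage 10.5 were near the 5th percentile of 4.43, and the stage 12 fall would have ended at 4.39 there, so a larger early fall could not have been measured in full.

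The ets1.S probe set, Xl.1148.1.S1_at, had changes of opposite sign at the 2 stages. At stage 10.5 it read 94.2, 59.1 and 44.3 in uninjected caps and 145, 99.1 and 63.5 in injected caps, so each injected array was above its partner while the groups overlapped. Late gastrula values were 76.8, 41.1 and 49.3 in uninjected caps against 16.6, 22.2 and 27.2 in injected caps, without overlap. The early change was 0.50 ± 0.21 (limma adjusted p = 0.166) and did not pass. At stage 12 the level fell by 0.95 ± 0.21, 1.93-fold (adjusted p = 0.00398). The difference between stages was -1.45 ± 0.29 (limma adjusted p = 0.0155).

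The pairs of ets1.S gave 0.63, 0.48 and 0.39 at stage 10.5 and -1.61, -0.63 and -0.61 at stage 12. The late fall was thus largest in experiment 1, and without that experiment at both stages it was -0.62 (limma adjusted p = 0.0227). Without the stage 12 pair of experiment 3 it was -1.12 (adjusted p = 0.00486), and with a pseudocount of 64 it was -0.53, with the difference between stages at -0.86, and both passed. The calls of ets1.S depended on the block, without which the stage 12 change had an adjusted p of 0.160 and the difference between stages 0.496. Without experiment 2 the difference was -1.63 (limma adjusted p = 0.141). With each stage fitted alone, an alternative chosen after seeing the data, the early change of 0.50 passed (adjusted p = 0.0252).

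Other copies of these genes were looked at after the values above had been seen. The brighter ets1.L probe set, Xl.15393.1.A1_at, changed by 0.07 at stage 10.5 and -0.08 at stage 12 (limma adjusted p = 0.891 and 0.778). The dimmer ets1.L probe set gave 0.23 and 0.38 (limma adjusted p = 0.659 and 0.222). Whether the .L and .S copies of ets1 differ in their response was not tested. The pax3.S probe set was dim, at 2.42 to 14.4, and was not tested. Probes can cross-hybridise between such copies.

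Over all 8 tested probe sets, the injected and uninjected arrays of stage 10.5 did not overlap on the normalised scale for 5 with injected caps lower and 1 (the dim pax3.L probe set) with injected caps higher. The same held for 8.29% and 6.82% of all tested probe sets. At stage 12 this was so for 4 probe sets with injected caps lower and 0 with injected caps higher, against 16.7% and 21.1%.

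From stage 10.5 to stage 12, uninjected caps gained kctd15.L signal and lost prdm1.S signal. In a limma fit of the 4 groups, kctd15.L rose by 1.39 ± 0.30 in uninjected caps (adjusted p = 0.00446) and by 1.05 ± 0.30 in injected caps (adjusted p = 0.0329). All 3 prdm1.S probe sets fell in uninjected caps, with changes of -2.23, -2.58 and -1.54 (limma adjusted p = 0.000105, 5.93e-05 and 0.0157). In injected caps, which were already low at stage 10.5, they changed by -0.49, -0.37 and -0.35 (limma adjusted p = 0.234, 0.405 and 0.627). The dim pax3.L probe set rose by 0.60 in uninjected caps (limma adjusted p = 0.0322). It passed the filter's limit of 5.256 only through uninjected caps of stage 12, with a mean of 5.60. Uninjected caps of stage 10.5 were at 4.996, and injected caps of the 2 stages at 5.27 and 5.39. This rise is therefore no independent support.

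Of the 8 probe sets, 2 rose and 3 fell in uninjected caps over this time, against 15.2% and 16.5% of all tested probe sets (31.7% in all). Among them, the dim pax3.L and the dimmest prdm1.S probe set passed the filter only through the group where they were high. Those calls are no independent support. In injected caps 1 rose and 1 fell, against 7.82% and 8.49% (16.3% in all). The brighter pax3.L probe sets changed by 0.45 and 0.97 in uninjected caps and by 0.18 and 0.93 in injected caps, and none passed (limma adjusted p = 0.334, 0.0605, 0.770 and 0.0990). ets1.S stayed at 0.02 in uninjected caps (limma adjusted p = 0.971) and fell by 1.43 ± 0.42 in injected caps (adjusted p = 0.0372).

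Levels of different stages depend on the scaling. The median of all genes moved by -0.04 in uninjected and 0.02 in injected caps after quantile normalisation, by -0.23 and -0.20 on the deposited scale, and by 0.12 and 0.14 with median centring. On the deposited scale the rise of kctd15.L in uninjected caps was 1.13 (limma adjusted p = 0.0956). The calls for the rise of kctd15.L and the fall of ets1.S in injected caps were lost without experiment 2 (limma adjusted p = 0.358 and 0.139) or without experiment 3 (0.174 and 0.220). The rise of kctd15.L in uninjected caps did not pass without experiment 2 or without experiment 3 (limma adjusted p = 0.0917 and 0.0914). That of the dim pax3.L probe set did not pass without experiment 1, 2 or 3 (0.107, 0.194 and 0.0982).

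In the order of their normalised means, the brightest pax3.L probe set ran from uninjected caps of stage 12 through uninjected caps of stage 10.5 and injected caps of stage 12 to injected caps of stage 10.5, and the arrays of neighbouring groups overlapped throughout. For kctd15.L the order was the same, and there the first group was above the second and injected caps of stage 12 above injected caps of stage 10.5 without overlap. For the brightest prdm1.S probe set, uninjected caps of stage 10.5 came first, apart from the others, followed by injected caps of stage 10.5, uninjected caps of stage 12 and injected caps of stage 12, which overlapped with their neighbours. For ets1.S the injected caps of stage 12 came last, apart from the other 3 groups.

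Genes of the neural border and crest were taken from lists chosen by function, with 1 probe set per gene and, unless stated, without the 4 genes described above. The lists were chosen with earlier results of these data known, so their counts describe the listed genes and are no independent support. Copies .L and .S count as separate genes, as for dlx3, hes4 and msx1 among the border genes. Of 11 other border genes tested, 9 fell and 0 rose at stage 10.5 (median -1.48) and 10 fell and 1 rose at stage 12 (median -1.22), against medians of 0.05 and 0.09 over all tested probe sets. Whether a neural border was present in these caps was not tested. Of all tested probe sets 7.06% fell and 3.31% rose at stage 10.5, and 17.6% fell and 23.5% rose at stage 12. Among those that fell at both stages, tfap2a.L (AP-2) changed by -1.48 and -0.95, msx1.L by -2.43 and -1.91 and dlx3.S by -2.63 and -1.22. Of the same list, zic1.S, the partner of Pax3 in crest induction, fell by 1.16 at stage 10.5 (limma adjusted p = 0.00279) and rose by 0.81 at stage 12 (adjusted p = 0.00805). Its early fall did not pass without experiment 2 (limma adjusted p = 0.0587), and its late rise did not pass without experiment 1 (0.0511). msx2.L, at -0.96, did not pass at stage 10.5 (limma adjusted p = 0.252). The stage 12 change of dlx6.S, -0.90, did not pass without the stage 12 pair of experiment 3 (limma adjusted p = 0.0647).

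The 6 other crest specifiers tested were ets1.L, id3, id3.S, myc.L, myc.S and sox9.S, and foxd3, snai1, snai2, sox8, sox10 and twist1 went untested. Copies count apart, so these 6 cover only the genes ets1, id3, myc and sox9. Of them 2 (id3 and id3.S) fell and 1 rose at stage 10.5 (median -0.28). At stage 12, 4 (the id3 and myc entries) fell and 0 rose (median -0.58). Shares of all tested probe sets were 7.06% lower and 3.31% higher at stage 10.5, and 17.6% and 23.5% at stage 12. With the 4 genes included the crest list has 15 annotated genes, of which 8 were tested. The helix-loop-helix inhibitor id3 fell at both stages, with changes of -1.05 and -0.63, and the entry id3.S changed by -0.69 and -0.53. Without the block the late fall of id3 did not pass (limma adjusted p = 0.0846). Neither fall of id3.S passed in that fit (limma adjusted p = 0.999 and 0.720). The growth regulator myc.S rose by 0.79 at stage 10.5 (limma adjusted p = 0.0209) and fell by 0.92 at stage 12. The early rise did not pass without the block, without experiment 2 or without experiment 3 (limma adjusted p = 0.414, 0.291 and 0.138). The copy myc.L changed by -0.45 (adjusted p = 0.151) and fell by 1.59 (adjusted p = 8.79e-05). sox9.S, at -0.11 and 0.17, passed at neither stage (limma adjusted p = 0.884 and 0.663). Of the preplacodal list foxi1.L alone was tested, and it fell at both stages, with changes of -1.78 and -2.44. In these 3 lists together 12 of 18 fell and 1 rose at stage 10.5, and 15 fell and 1 rose at stage 12. With the 4 genes included, the border list had 11 and 12 genes called at the 2 stages and the crest list 4 and 6, and without the block these were 9 at each stage and 2 at each stage.

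**Figure D4:**
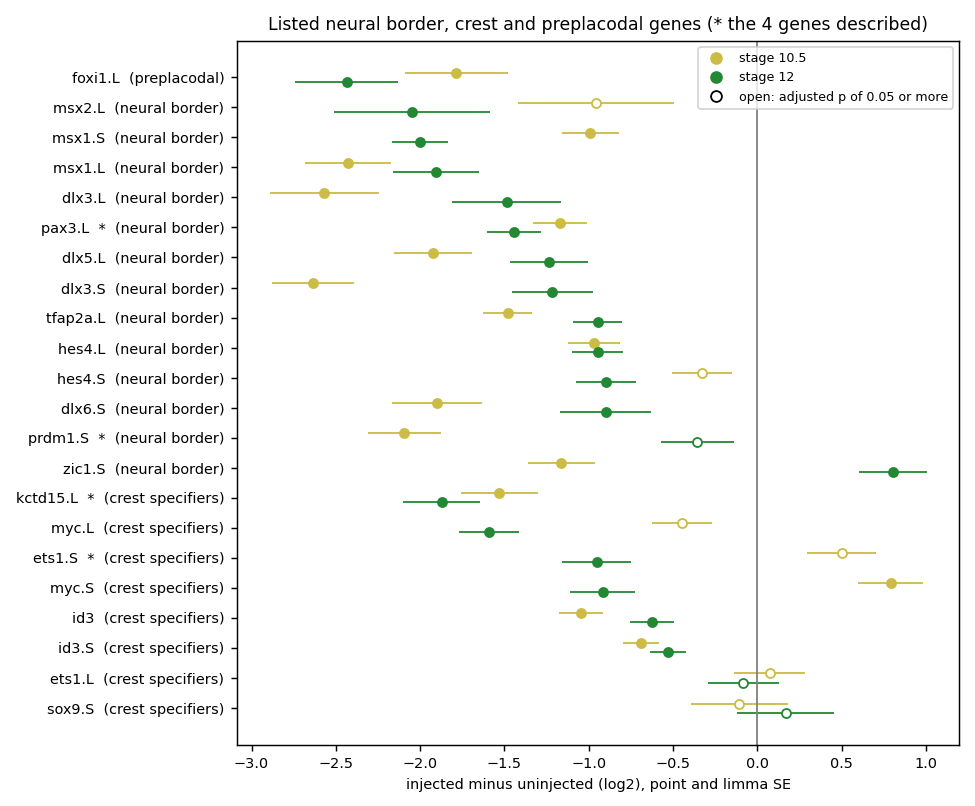
Injected minus uninjected change (x axis, log2, points with limma SE) of the 22 tested genes of the neural border, crest specifier and preplacodal lists at stage 10.5 and stage 12. Filled points have an adjusted p under 0.05 and asterisks mark pax3.L, prdm1.S, kctd15.L and ets1.S. Most genes lie below 0 at both stages, and ets1.S, myc.S and zic1.S have opposite signs at the 2 stages, as do ets1.L and sox9.S, which lie near 0 and passed at neither.

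Among 10 genes of the signals that set up the border, 2 rose and 4 fell at stage 10.5, and 4 rose and 5 fell at stage 12, where 3.31% and 7.06%, and then 23.5% and 17.6%, of all tested probe sets did. The BMP ligand genes split: bmp2.L rose by 0.96 and 0.73 and bmp2.S by 0.64 and 0.52, while bmp4.S fell, with changes of -1.57 and -1.16. Both bmp2 entries were dim, with mean log2 signals of 5.45 and 5.52 near the filter's limit of 5.26, against 7.04 for bmp4.S. bmp7.1.L, at -0.57 early (limma adjusted p = 0.158), fell by 2.03 at stage 12 (adjusted p = 9.38e-05). bambi.L, a pseudoreceptor that dampens BMP signalling, fell, with changes of -1.69 and -1.04. The Wnt receptor gene fzd7.L and the co-receptor gene lrp6.L rose at stage 12 by 1.17 (limma adjusted p = 0.00178) and 0.67 (adjusted p = 0.0258). Another Wnt receptor gene, fzd3.L, fell, with changes of -0.82 (limma adjusted p = 0.0154) and -0.97 (adjusted p = 0.00206). Its early fall did not pass without the block (limma adjusted p = 0.0919), without experiment 2 (0.108) or without experiment 3 (0.0542). Its late fall passed without the block (limma adjusted p = 0.0142). The rise of bmp2.S did not pass without experiment 2 or without experiment 3 at either stage, nor without experiment 1 at stage 10.5. The rise of bmp2.L did not pass without experiment 2 at either stage, and that of lrp6.L at stage 12 did not pass without experiment 1 or without experiment 2. Without the block the rises of bmp2.L, bmp2.S, fzd7.L and lrp6.L did not pass. The stage 12 fall of bmp4.S was also lost without the block (limma adjusted p = 0.0523). snw1.S, at -0.35 and -0.17, did not pass (limma adjusted p = 0.114 and 0.305).

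Markers of other cell types moved as well, and their part in the changes of the 4 genes was not tested. The shares of all tested probe sets to set beside the counts that follow are 3.31% higher and 7.06% lower at stage 10.5, and 23.5% higher and 17.6% lower at stage 12. Of 16 epidermal genes 8 fell at stage 10.5 and 13 at stage 12, and 0 rose. Falls of listed genes were thus not particular to the border and crest lists. The summed normalised signal of the epidermal genes was 8070 to 14545 in uninjected and 4584 to 7314 in injected caps at stage 10.5. At stage 12 it was 23013 to 32358 against 12070 to 14275. Such sums weigh the brightest gene of a list most. For the epidermal list that is krt70.S, which changed by -0.62 and -0.21 at the 2 stages (limma adjusted p = 0.000411 and 0.0508). Of 10 neural plate genes 1 rose and 3 fell at stage 10.5, and 5 rose and 5 fell at stage 12. The neural plate sums were 5302 to 5573 in uninjected and 5244 to 6189 in injected caps at stage 10.5, and 1431 to 2007 against 1903 to 2638 at stage 12.

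Of 10 annotated mesoderm genes 6 were tested, of which 1 rose at stage 10.5 (myod1.L, the muscle factor, by 0.84) and 2 rose and 1 fell at stage 12. Their sums were 430 to 731 in uninjected and 582 to 736 in injected caps at stage 10.5, and 239 to 302 against 325 to 459 at stage 12. Of 14 annotated endoderm genes 6 were tested, with 1 higher and 1 lower at stage 10.5 and 4 lower at stage 12, and sums of 444 to 490 in uninjected against 231 to 322 in injected caps at stage 12. The organizer list had 3 of 12 genes tested, with 0 passing at stage 10.5 and 1 higher at stage 12. The blood and endothelium list, shown because ets1 is also a gene of vessel cells, had 3 of 9 tested and 0 passed in either direction at either stage by limma. These 3 were gata1.L, spib.S and tal1.S, with mean log2 signals of 5.60, 8.85 and 5.38, while fli1, erg and etv2 went untested. The list is thus a narrow check of vessel cells, and its sums weigh spib.S most. The sums were 516 to 644 in uninjected and 623 to 663 in injected caps at stage 10.5, and 445 to 586 against 478 to 590.3 at stage 12.

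For each of the 4 genes, the 3 most similar probe sets of other named genes were found by Pearson correlation over the 12 arrays, which share their groups and experiments, so these values describe likeness only. Most like the brightest pax3.L probe set were midn.S (0.957), znf346.S (0.938) and tardbp.L (0.935). For prdm1.S they were atg16l1.L (0.973), rab11fip4l.L (0.965) and sds.L (0.947). kctd15.L was most like a2m.S (0.987), a gene of the endoderm list, tead4.S (0.977) and yipf6.L (0.976). For ets1.S they were dnajb14.S (0.952), ccdc61.L (0.927) and pdcl3.L (0.915). Of these neighbours tead4.S had changes of -1.83 and -1.77 at the 2 stages, close to the -1.53 and -1.87 of kctd15.L, while pdcl3.L had only 0.05 and -0.35.

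Within a gene, the brightest pax3.L probe set correlated over the 12 arrays with the second at 0.851 and with the dim Xl.15871.1.A1_at at 0.077. The prdm1.S probe sets correlated with each other at 0.885 to 0.976. Between genes, the brightest probe sets of pax3.L and kctd15.L correlated at 0.836, while that of ets1.S was at 0.209 with pax3.L, 0.130 with prdm1.S and -0.07 with kctd15.L. These 12 arrays share 4 groups, and no p is given.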

How the data were processed

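The deposited values are linear intensities, 1 for each probe set and array. How the authors summarised probes, corrected background and scaled arrays is not given in the sources used, and the number of arrays limits the precision. Because array medians differed by 1.31 on the log2 scale, above a limit of 0.2, log2(intensity + 16) was quantile normalised, a scale that understates the change of dim genes. The lowest 25% by mean signal (3873 probe sets) were left out and 11618 were tested. Symbols came from GEO's platform annotation, with 1 symbol on 9304 probe sets, more on 195 and none on 5992. They were updated through gene identifiers (9227 matched, 2 changed). No position is given, since the array's files name no genome build.

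Tests were run in R 4.3.3 with limma 3.58.1 (lmFit, then eBayes with trend), adjusted by Benjamini-Hochberg over the tested probe sets, with a threshold of 0.05. Injected and uninjected arrays were paired by experiment within stage (4 residual degrees of freedom), as the design text states. Deviations of same-numbered arrays correlated at 0.765 to 0.797 at stage 10.5 and 0.424 to 0.693 at stage 12, where experiments 2 and 3 also deviated together (0.497 and 0.555). Stages were compared without a block (8 degrees of freedom), and disagreement was tested on differences from a gene's brightest probe set, over 1343 pairs. A limma SE rests on 1 spread shared by all groups of a fit.

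Members and gene lists were chosen with earlier results of these data known. The text names every probe set of the 4 genes, gmnn.L, the listed border, crest, preplacodal and signal genes with the smallest adjusted p (up to 8 per direction) or the largest change among those not passing (up to 4), and the 3 most similar probe sets per gene. Beyond this rule, ets1.L, pax3.S, bmp4.S, fzd3.L, myod1.L, id3.S, dlx6.S, hes4, krt70.S and the tested blood and endothelium genes were added after values were seen. So were the untested crest, blood and endothelium genes and the second-stage values of named genes. Scripts were tested on simulated data. Alternatives were no block, the experiment number as a block across stages, other scalings, pseudocounts of 1 and 64, no filter or a 50% filter, no intensity trend, arrays left out, stage 12 pairs 2 and 3 averaged and, chosen after seeing the data, each stage fitted alone and the stage 12 pair of experiment 3 left out.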

Additional observations from a re-analysis of the deposited data

Results flagged for a closer look

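The change of prdm1.S differed between the stages in limma's test of the difference itself (stage 12 minus stage 10.5), by 1.74 for its brightest probe set and by 2.20 for Xl.8351.1.A1_s_at. That of ets1.S differed by -1.45, with injected above uninjected caps in 3 of 3 pairs at stage 10.5 and below in 3 of 3 at stage 12. Without experiment 2 these were 1.34, 1.85 and -1.63 and had adjusted p of 0.193, 0.0580 and 0.141 in limma.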

How the results depend on the processing

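The fit without the replicate block leaves out the pairing of the design. Counts of all probe sets called then fell from 1205 to 262 (stage 10.5), from 4781 to 1509 (stage 12) and from 670 to 34 (difference between stages). For disagreement between probe sets they fell from 30 and 132 to 2 and 15. Of the probe sets of the 4 genes, 3 were called at stage 10.5 and 1 for the difference between stages, and of the crest list 2 at each stage. The values of the fits do not move without the block, but pax3.L at stage 10.5 (-1.17), ets1.S at stage 12 (-0.95) and between stages (-1.45) and the brightest prdm1.S probe set between stages (1.74) no longer passed. With the library labelled uninjected, stage 12, experiment 3 also left out, the counts were 183, 1162, 39, 2 and 8. Probe sets of the 4 genes then gave 3, 2 and 1, the border list 6 at stage 12, the crest list 1 and 2, and the preplacodal list 0 at stage 10.5 by limma. In that fit pax3.L at stage 10.5 was -1.17, ets1.S at stage 12 -1.11 and between stages -1.61, and prdm1.S between stages 1.97, none of them past the threshold. Xl.8351.1.A1_s_at of prdm1.S was at 0.20 at stage 12.

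Leaving out each of the 3 experiments gave 321 to 1168 calls at stage 10.5 and 2658 to 4036 at stage 12 (1275 and 4416 without the stage 12 pair of experiment 3), 18 to 473 for the difference between stages, 13 to 34 and 66 to 91 for disagreement, 1266 to 3823 between uninjected stages and 229 to 2735 between injected stages. Probe sets of the 4 genes called were 0 to 4 for the difference between stages, 2 to 3 between uninjected (5 without the doubted uninjected library of stage 12) and 0 to 2 between injected stages, and crest genes 2 to 4 at stage 10.5. Ranges of the difference between stages were -1.68 to -1.06 for ets1.S, 1.34 to 2.24 for the brightest prdm1.S probe set, -0.57 to 0.0183 for kctd15.L, and -0.54 to 0.0287 and -0.57 to 0.24 for the brighter pax3.L probe sets. Near 0, the sign also turned at stage 12 for Xl.15871.1.A1_at (-0.39 to 0.0402) and Xl.8351.1.A1_s_at (-0.29 to 0.13), and between stages for ets1.S (-0.0601 to 0.13, and 0.182 without the doubted library alone) and pax3.L (-0.0026 to 0.69) in uninjected caps and for Xl.8351.1.A1_s_at (-0.59 to 0.0269) in injected caps. For disagreement it turned for Xl.9183.1.A1_at (-0.11 to 0.0737 and -0.14 to 0.57), Xl.8351.1.A1_s_at (-0.21 to 0.0237 at stage 10.5) and Xl.563.1.S1_at (-0.28 to 0.0475 at stage 12). Falls called at stage 10.5 (pax3.L, prdm1.S and kctd15.L) and at stage 12 (pax3.L, kctd15.L and ets1.S) kept their calls in each of these fits.

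The design text repeats experiments within each stage, and deviations of same-numbered arrays correlated across stages at only -0.0367 to 0.201, so stages were compared without a block. With the number as a replicate block across stages, 6 probe sets of the 4 genes passed between uninjected and 3 between injected stages (5 and 2 without it), Xl.9183.1.A1_at of pax3.L being added in both (0.97 and 0.93, limma adjusted p = 0.0173 and 0.0319).

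With the lowest 50% left out, 379 probe sets passed for the difference between stages and 69 for disagreement at stage 12. The dimmer probe sets of the 4 genes then went untested, and 3, 2, 1, 1 and 0 were called at stage 10.5, stage 12, between stages in the change, and between uninjected and injected stages. A pseudocount of 1 gave 437 calls for the difference between stages, with 0.19 for kctd15.L and 0.0309 for Xl.9183.1.A1_at. A pseudocount of 64 gave 0 calls of the 4 genes between injected stages, and disagreements of 0.16 for Xl.9183.1.A1_at and 0.10 for Xl.8351.1.A1_s_at at stage 10.5. On the deposited scale 1375 probe sets passed between uninjected and 535 between injected stages, 3 and 1 of them from the 4 genes, with -0.18 for ets1.S and -0.0618 for pax3.L. Median centring left 1 call between injected stages. With stage 12 pairs 2 and 3 averaged, 783 passed there and 0 of the 4 genes. With each stage fitted alone 1830 passed at stage 10.5, among them ets1.S (0.50). Without the stage 12 pair of experiment 3, 1033 passed for the difference between stages, with 0.10 for Xl.9183.1.A1_at and 0.08 for Xl.8351.1.A1_s_at at stage 12. The causes were not tested. On the normalised scale, low signal limits how large a fall could be shown in full. This concerns kctd15.L at stage 10.5, the dim pax3.L probe set and prdm1.S at stage 12. Part of such a fall could still be shown. In the brightest prdm1.S probe set, uninjected caps of stage 12 had a mean of 6.31, and the change was -0.36. Whether low signal accounts for the smaller late change of prdm1.S was not tested.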
